A study of Homo sapiens with 12 samples.

Results

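The immediate early genes NR4A1, IER3, JUNB, FOS, FOSL1, EGR1, MYC and ATF3 were followed in HSC-3 cells, an established line from a human squamous carcinoma of the tongue. Each of the 8 genes was read at its own row of the count tables and, where one exists, at the annotated feature on the other strand that overlaps its exons by at least 30 bases and holds the most reads. This gave 12 rows of the 60675 in each table: 8 own rows and 4 opposite features, namely NR4A1AS for NR4A1, IER3-AS1 for IER3, HOOK2 for JUNB and CASC11 for MYC. Of these rows, 8 passed the count filter and were among the 14911 tested: the 4 opposite features and the own rows of IER3, JUNB, FOSL1 and MYC. RNA came from 3 groups of 4 libraries. One group was untreated, another received 25 µM cyclopiazonic acid (CPA) for 3 hours, and the other received CPA in the presence of synta-66. The sources used here give neither the dose of synta-66 nor a vehicle for the untreated cells, and cells given only synta-66 were not analysed here. Whether the 4 libraries of each group are separate cultures is not stated in the labels, so p-values cover the spread between these libraries, which may be technical.

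Immediate early genes are switched on within minutes of a stimulus by transcription factors already present in the cell, without new protein synthesis, and many of their transcripts are short-lived. Rising cytosolic calcium is a classic trigger, acting through calmodulin-dependent kinases on CREB, through calcineurin on NFAT, and through MAP kinases on the ternary complex factors that work with SRF. CPA inhibits SERCA, the calcium pump of the endoplasmic reticulum. Emptied stores open ORAI channels in the plasma membrane, which synta-66 inhibits. NR4A1 (Nur77) is an orphan nuclear receptor, IER3 (IEX-1) a small stress-induced regulator of survival signalling, and JUNB, FOS and FOSL1 are subunits of the AP-1 transcription factor. EGR1 is a zinc finger transcription factor, MYC a basic helix-loop-helix factor of growth control, and ATF3 a stress-induced bZIP factor.

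Reads assigned to genes numbered 2819486 to 5458858 per library, 3.58% to 9.4% of uniquely aligned reads. In untreated replicate 3 and in replicates 1 and 4 of CPA with synta-66, the 2 mitochondrial ribosomal RNAs took 39.6%, 53.5% and 49.4% of gene reads, against 0.165% to 11.8% in the other libraries. These 3 libraries also had more non-unique alignments, 268 to 486 M against 44.2 to 135 M. All 15 genes of a squamous epithelial and carcinoma marker list passed the filter, and their own rows summed to 7141 to 8792 CPM in a library. Nearly all of that sum was the row of the keratin KRT8, at a mean of 7261, 7669 and 8299 CPM in the untreated, CPA and synta-66 groups. The KRT8 row is also the feature opposite KRT18, with 525 shared exonic bases, so its reads cannot be assigned to KRT8 alone. The own row of KRT18 had 38.5, 34.6 and 46.4 CPM. The basal keratin KRT5 had 23.3, 23.8 and 16.7 CPM and TP63 under 1 CPM. The called member of that list was vimentin (VIM), whose own row fell with synta-66 added to CPA, from 43.7 ± 5.16 to 27.2 ± 6.83 CPM (adjusted p = 0.00636). VIM-AS1, opposite VIM, had 2824, 5327 and 2761 CPM in the 3 groups (adjusted p = 3.35e-12 with CPA and 1.06e-12 with synta-66 added). Of 9 fibroblast markers, 5 had no read in any library and the list summed to 0.205 to 1.46 CPM. Of 11 immune and endothelial markers, 4 had none and the list summed to 2.18 to 9 CPM. CPM is the usual unit of counts scaled to library size, here with library sizes adjusted by the trimmed mean of M values (TMM). In bulk RNA, fewer cells that carry a transcript and less of it per cell cannot be told apart.

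The 3 best-read opposite features cover different parts of the genes they face, and the sequences show which stretch of the gene each shares. NR4A1 lies on chromosome 12, 52022832 to 52059507 on the plus strand of GRCh38, and NR4A1AS, a long noncoding RNA, at 52058459 to 52059503 on the minus strand. They share 754 exonic bases, of which 192 are coding sequence in the last exon of NR4A1, 3 are its stop codon and 559 are 3′ UTR. IER3 lies on chromosome 6, 30743199 to 30744548 on the minus strand, and IER3-AS1 at 30742757 to 30743638 on the plus strand. Their shared 440 bases are all 3′ UTR of IER3, so no stretch is printed. JUNB is a gene of 1 exon on chromosome 19, 12791486 to 12793315 on the plus strand. HOOK2, itself a coding gene for a cytoskeletal linker protein, spans 12763003 to 12872740 on the minus strand. Only 1 of the 25 HOOK2 transcripts in GENCODE 44, a retained-intron form, overlaps JUNB, over 259 bases that are all coding sequence of JUNB and 4.35% of the exonic bases of HOOK2. The plus strand of GRCh38 is given below for both coding stretches, with capitals for the bases that lie opposite an exon of NR4A1AS (chr12:52058688-52058941) or HOOK2 (chr19:12792304-12792602).
NR4A1, coding part of the last exon: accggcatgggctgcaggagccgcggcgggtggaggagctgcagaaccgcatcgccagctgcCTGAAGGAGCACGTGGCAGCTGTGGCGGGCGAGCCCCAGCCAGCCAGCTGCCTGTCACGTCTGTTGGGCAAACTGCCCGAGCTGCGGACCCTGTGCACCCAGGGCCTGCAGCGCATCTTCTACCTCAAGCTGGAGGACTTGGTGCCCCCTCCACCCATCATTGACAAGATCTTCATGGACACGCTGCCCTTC
JUNB, shared coding stretch with 20 bases on each side: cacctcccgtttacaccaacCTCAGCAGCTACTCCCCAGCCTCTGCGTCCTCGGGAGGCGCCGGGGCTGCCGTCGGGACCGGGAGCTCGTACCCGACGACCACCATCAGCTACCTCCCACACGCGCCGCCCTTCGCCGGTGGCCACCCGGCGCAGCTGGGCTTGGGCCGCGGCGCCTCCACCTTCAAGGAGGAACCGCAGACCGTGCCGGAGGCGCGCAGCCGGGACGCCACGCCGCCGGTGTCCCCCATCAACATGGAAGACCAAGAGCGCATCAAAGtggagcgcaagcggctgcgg

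The genes' own rows held few reads or none. NR4A1 had 0 reads at its own row in each of the 12 libraries, against 1058 at NR4A1AS over all libraries. IER3 had 191 reads at its own row and 86725 at IER3-AS1, a ratio of 454. JUNB had 133 and HOOK2 7569, a ratio of 56.9. MYC was the exception, with 244 reads of its own and 50 at CASC11. Among 3969 coding genes with a tested feature opposite them alone, 67.9% had more reads at the opposite feature. That feature was picked for most reads and had to pass the count filter, while the own row did not, which favours the feature. The ratio of NR4A1 lay at the 99.6th, that of IER3 at the 96.8th, that of JUNB at the 81st and that of MYC at the 16th percentile. For NR4A1 a small value stood in for its 0 own reads. FOS and EGR1 have no such opposite feature and had 0 reads in all 12 libraries, as did 23.7% of the coding gene rows. At 3 reads, the limit that a count of 0 allows, this bounds each of them at 0.6 to 1.31 CPM at the own row, depending on the library. This limits reads counted to those rows and not the genes' transcripts: no source used here names the library kit, and whether the strand setting of the counting matched the library was not tested. If it did not, reads of a gene would have been counted at the opposite feature or at none. A reading at an opposite feature cannot be separated from that feature's own transcript, so the values that follow are given as readings "at" a feature.

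**Figure D1:**
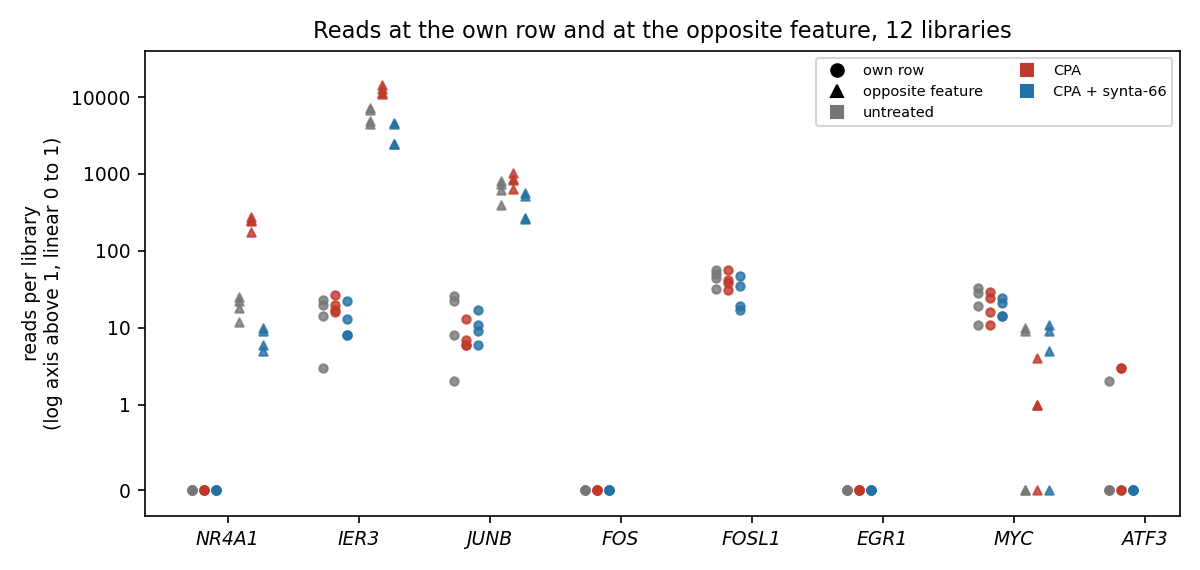
Reads per library (log axis above 1, linear from 0 to 1) at the own row (circles) and at the opposite feature (triangles) of each of the 8 genes, with libraries coloured by group. The triangles of NR4A1, IER3 and JUNB lie far above the circles, and FOS and EGR1 sit at 0 in all 12 libraries.

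The first comparison sets cells given CPA against untreated cells. Calcium stores and calcium entry were not measured in these data. NR4A1AS and IER3-AS1, the features opposite NR4A1 and IER3, rose with CPA. NR4A1AS had 2.5, 4.4, 7.81 and 5.27 CPM in the untreated libraries and 45.4, 64.4, 51.4 and 53.3 CPM in the CPA libraries. The lowest CPA library thus lay well above the highest untreated one, and these levels rest on 12 to 25 and 176 to 277 reads per library. The mean went from 5 ± 2.21 to 53.6 ± 7.93 CPM (SD, n = 4), an 11.1-fold rise (log2 fold change 3.47 ± 0.25 SE, adjusted p = 8.81e-14, Benjamini-Hochberg, from the quasi-likelihood test of edgeR).

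IER3-AS1 had 1401, 1434, 1528 and 1319 CPM untreated and 2850, 2620, 2955 and 2744 CPM with CPA. The groups did not overlap and each was tight, with a coefficient of variation of 6.07% untreated and 5.14% with CPA. The rise was 1.97-fold (log2 fold change 0.97 ± 0.07, adjusted p = 1.37e-14). Scaled to all uniquely aligned reads in place of TMM library sizes, IER3-AS1 went from 66.8 ± 1.23 to 129 ± 4.8 on that CPM scale (exact two-sided permutation p = 0.0286, the smallest that 4 against 4 allows). Of the 8 tested rows here, 2 were called higher and 0 lower. In this comparison 1.80% of the 14911 rows tested were called higher and 1.05% lower, and 3.40% and 1.31% of the 3969 features that lie opposite a single coding gene. Groups did not overlap, with CPA higher, at 5.70% of rows.

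At HOOK2, the reading for JUNB, the untreated libraries had 166, 149, 123 and 182 CPM and the CPA libraries 166, 196, 213 and 185 CPM. The groups overlapped, since CPA replicate 1 lay within the untreated range. The log2 difference was 0.29 ± 0.11 (95% interval 0.08 to 0.51), with adjusted p = 0.117, and was not called.

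**Figure D2:**
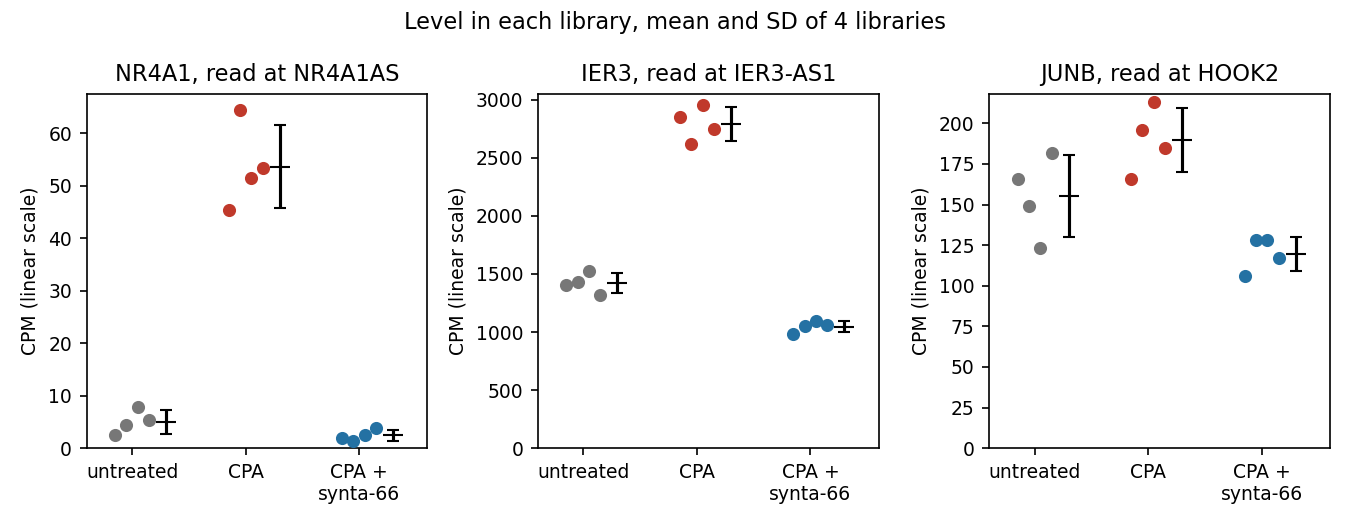
CPM (linear scale) in each library at NR4A1AS, IER3-AS1 and HOOK2, one panel each, with the mean and SD of the 4 libraries of a group beside the points. NR4A1AS and IER3-AS1 are highest in the CPA libraries without overlap, and HOOK2 separates CPA from CPA with synta-66 but not from untreated.

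The second comparison asks which of these readings the ORAI inhibitor altered. All 3 were lower with CPA and synta-66 than with CPA alone. NR4A1AS had 2.03, 1.35, 2.46 and 3.92 CPM, from 5 to 10 reads per library, against at least 45.4 CPM in every CPA library. The mean of 2.44 ± 1.09 CPM was 23-fold lower (log2 fold change -4.53 ± 0.29, adjusted p = 1.37e-15). IER3-AS1 had 983, 1051, 1095 and 1059 CPM, all below the lowest CPA library at 2620. The fall was 2.67-fold, to a mean of 1047 ± 46.6 CPM (log2 fold change -1.42 ± 0.07, adjusted p = 4.65e-20).

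HOOK2 had 106, 128, 128 and 117 CPM with synta-66, below all CPA libraries. The fall was 1.58-fold, from 190 ± 19.7 to 120 ± 10.5 CPM (log2 fold change -0.66 ± 0.11, adjusted p = 2.39e-05). This lies near the fold minimum of 1.5, and without the 3 libraries rich in mitochondrial ribosomal RNA the log2 difference was -0.56 with adjusted p = 0.0022, which misses that minimum. Replicates 1 and 4 of CPA with synta-66 were the lowest at HOOK2 in their group, and untreated replicate 3 the lowest in its own. The part of the ribosomal RNA share in these values was not tested. Without those 3 libraries the changes at NR4A1AS (-4.80) and IER3-AS1 (-1.37) stayed called. Here 3 of the 8 tested rows were called lower and 0 higher. In this comparison 2.82% of all rows tested were called lower and 1.94% higher, and 4.38% and 2.70% of the features opposite a single coding gene. Groups did not overlap, with synta-66 lower, at 6.84% of rows.

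The third comparison sets CPA with synta-66 against untreated cells, and it shares its libraries with the other two. None of the 8 rows was called, while 1.66% of all rows tested were called higher and 1.24% lower in the edgeR test, and 2.87% and 1.28% of the features opposite a single coding gene. Those calls were 248 higher and 185 lower, but 194 higher and 262 lower when scaled to uniquely aligned reads. With no minimum fold, 2 of the 8 were lower at adjusted p under 0.05, beside 1.59% of all rows tested. IER3-AS1 was lower with CPA and synta-66 than untreated, at 983 to 1095 against 1319 to 1528 CPM, with no overlap. Its log2 difference of -0.44 ± 0.07 had adjusted p = 8.25e-06 but, at 1.36-fold, stayed under the fold minimum. Over all rows tested, 4.65% had non-overlapping groups in that direction. NR4A1AS averaged 2.44 CPM against 5 untreated (log2 difference -1.06 ± 0.35, 95% interval -1.77 to -0.34, adjusted p = 0.0862), and the groups overlapped. It was called lower without untreated replicate 1 (-1.30, adjusted p = 0.0211) or without replicate 4 of CPA with synta-66 (-1.31, adjusted p = 0.0397). HOOK2 had 120 against 155 CPM, with overlapping groups (log2 difference -0.37 ± 0.11, adjusted p = 0.0418), also under the fold minimum.

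The order of the levels was therefore the same at the 3 features, CPA highest, untreated next and CPA with synta-66 lowest. At IER3-AS1 no neighbours in that order overlapped. At NR4A1AS untreated and CPA with synta-66 overlapped, and at HOOK2 untreated overlapped with both. Per kilobase of each feature's whole annotated exon length, the mean CPA level was 3165 CPM at IER3-AS1, 58.6 CPM at NR4A1AS and 32 CPM at HOOK2. The bases that face the gene are 49.9%, 82.4% and 4.35% of that length, in the same order. If the reads came from the gene, these levels would therefore not be comparable between the features. Averaged over the 12 libraries, IER3-AS1 was more abundant than 99.6% of the rows tested.

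**Figure D3:**
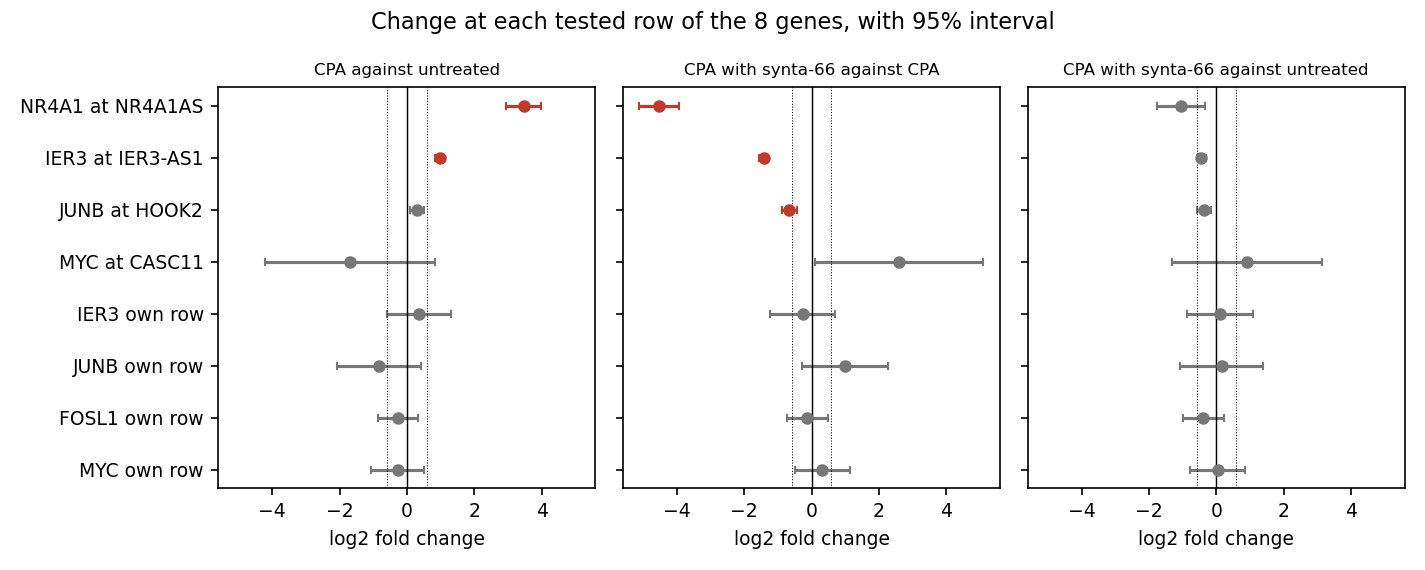
Log2 fold change (points) with its 95% interval (bars) at each of the 8 tested rows in the 3 comparisons. Red points were called, and dotted lines mark the fold minimum. The called changes are at NR4A1AS and IER3-AS1 with CPA and at NR4A1AS, IER3-AS1 and HOOK2 with synta-66 added.

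At their own rows, no gene was called in any of the 3 comparisons. These rows hold far fewer reads, and their intervals are correspondingly wide. Whether they hold the reads of their genes was not tested, so an uncalled own row does not show that the gene was unchanged. IER3 had 3 to 27 reads of its own per library, at 3.45 ± 1.69 CPM untreated, 4.55 ± 1.13 with CPA and 3.76 ± 1.12 with synta-66. For CPA against untreated the log2 difference was 0.37 with a 95% interval of -0.59 to 1.32. That interval includes the change seen at IER3-AS1. For synta-66 against CPA it was -0.26 (-1.23 to 0.71), which does not reach the -1.42 of IER3-AS1. JUNB had 2 to 26 reads per library, at 3.2 ± 2.14, 1.84 ± 0.831 and 3.81 ± 2.52 CPM. Its log2 differences were -0.83 (-2.09 to 0.42) and 0.99 (-0.29 to 2.27), opposite in sign to HOOK2, and adjusted p was 0.587 and 0.427. By the same overlap, the JUNB row is also the feature opposite HOOK2, so its reads cannot be assigned to JUNB alone.

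FOSL1, the AP-1 subunit best represented in its own row, had 17 to 57 reads per library. Its level was 8.8 to 16.7 CPM untreated, 7.78 to 13.3 with CPA and 7.4 to 10.6 with synta-66, so all 3 groups overlapped. The differences were -0.26 (95% interval -0.85 to 0.33) for CPA against untreated and -0.13 (-0.74 to 0.48) for synta-66 against CPA. MYC had 11 to 33 reads of its own, at 5.37 ± 1.42, 4.43 ± 1.48 and 5.58 ± 0.399 CPM, with differences of -0.28 (-1.08 to 0.52) and 0.32 (-0.50 to 1.13). CASC11, which shares 194 exonic bases with MYC, had 0 to 11 reads in a library and was also not called (adjusted p = 0.561, 0.21 and 0.792 in the order of the comparisons). ATF3 had 2 reads in untreated replicate 1, 3 each in CPA replicates 2 and 4, and 0 in the other libraries, and it was not tested. For NR4A1, FOS, EGR1 and ATF3 the own rows held no reads or too few for a difference to be seen. Whether deeper sequencing would change this was not tested, since these rows may not hold the reads of their genes.

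Other early response genes gave mixed readings. Of 61 listed, 11 had a tested feature opposite them alone. With CPA 3 of these features rose and 0 fell, beside the 3.40% called higher and 1.31% lower among all such features. They lie opposite the clock repressor BHLHE40 at BHLHE40-AS1 (2.68 ± 1.75 to 13 ± 2.04 CPM), the cytokine LIF at LIF-AS2 (3.53 ± 1.55 to 13.9 ± 4.31 CPM) and the stress kinase PLK3 at DYNLT4 (10.6 ± 1.53 to 22.7 ± 5.34 CPM). LIF-AS2 shares only 83 exonic bases with LIF and DYNLT4 98 with PLK3, so 2 of the 3 would not be read with an overlap of at least 100 bases. The median log2 change of the 11 was 0.06, against 0.03 over all such features. With synta-66 added to CPA, 2 fell and 2 rose, beside 4.38% called lower and 2.70% higher among all such features. The reading for IER5L, a relative of the early gene IER5, fell at IER5L-AS1 from 255 ± 27.8 to 137 ± 21.2 CPM, although CPA alone had left it at 255 against 244 untreated (adjusted p = 0.848). LIF-AS2 fell from 13.9 ± 4.31 to 6.55 ± 1.89 CPM (adjusted p = 0.0367). That call ended without CPA replicate 2 (adjusted p = 0.0511) or 3 (0.212), or without replicate 2 (0.0993), 3 (0.119) or 4 (0.075) of CPA with synta-66. BTG1-DT, opposite the antiproliferative gene BTG1, rose from 53.7 ± 6.1 to 94.3 ± 15.8 CPM, and PHLDA1-AS1, opposite PHLDA1, from 1037 ± 59.1 to 1612 ± 147 CPM. Scaled to uniquely aligned reads, PHLDA1-AS1 stayed just under the fold minimum, at 0.577. ENSG00000267598, opposite IER2 of the IER family, had 335, 292 and 278 CPM in the 3 groups and was not called.

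Against untreated cells, BTG1-DT (log2 fold change 1.26 ± 0.13) and PHLDA1-AS1 (0.85 ± 0.07) were higher and IER5L-AS1 (-0.84 ± 0.10) was lower with CPA and synta-66, beside 2.87% called higher and 1.28% lower among such features. By their own rows, 41 of the 61 genes were tested and 0 were called for CPA against untreated, a count near the background of 1.80% higher and 1.05% lower over all rows. For synta-66 added to CPA, 2 of the 41 were called higher and 1 lower, beside 1.94% and 2.82% over all rows. The own rows of PHLDA1 (0.74 ± 0.16) and the growth arrest gene GADD45A (1.79 ± 0.44) rose. That of the small GTPase RHOB (-2.97 ± 0.58) fell. For CPA with synta-66 against untreated, 2 of the 41 were called higher and 0 lower, beside 1.66% and 1.24% over all rows. The own row of GADD45A (1.59 ± 0.44) was higher. So was that of the chemokine CXCL8, at 2.19 ± 0.99 CPM against 0 reads in all untreated libraries (adjusted p = 0.0123). The CXCL8 call rests on few reads, has no SE and was not followed through the alternative fits. The first GADD45A call ended without replicate 4 of CPA with synta-66 (adjusted p = 0.0542) or without the 3 libraries rich in mitochondrial ribosomal RNA (0.128). Its second ended without that replicate 4 (0.161), without those 3 libraries (0.34), or without untreated replicate 1 (0.126) or 3 (0.0572).

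**Figure D4:**
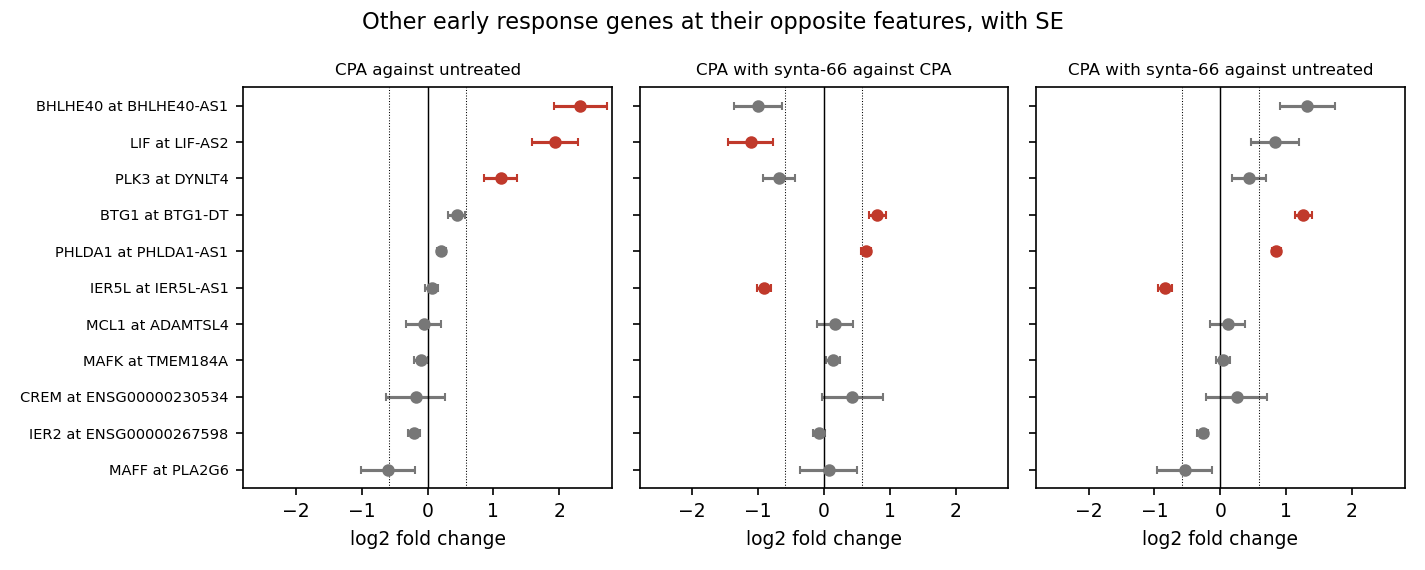
Log2 fold change with its SE at the opposite features of 11 other early response genes in the 3 comparisons, with called features in red and the fold minimum as dotted lines. The features opposite BHLHE40, LIF and PLK3 are those called with CPA, and those opposite BTG1, PHLDA1, IER5L and LIF were called when synta-66 was added.

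Among 16 genes of the AP-1 and MAF bZIP family, 4 had a tested opposite feature. Among all features opposite a single coding gene, 3.40% were called higher with CPA and 4.38% lower with synta-66 added. ENSG00000264769, opposite the small MAF protein gene MAFG, rose with CPA from 49.2 ± 4.37 to 77.5 ± 7.61 CPM (log2 fold change 0.65 ± 0.12, adjusted p = 0.000329), and HOOK2, opposite JUNB, was the one called lower with synta-66 added. The features opposite MAFF and MAFK were not called in any comparison. None of the 8 family members tested at their own rows was called. Over all rows tested, the share called in a given direction was 1.05% to 2.82% across the 3 comparisons, so that count is near the background.

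Genes that act upstream, from ORAI and STIM to calcineurin, CREB, MEF2 and the ternary complex factors, were also read. Of 54 listed, 19 had a tested opposite feature, and with CPA 2 rose and 1 fell, beside 3.40% called higher and 1.31% lower among all such features. ENSG00000251034, opposite PPP3CC, a catalytic subunit of calcineurin, rose from 16.1 ± 3.25 to 30.1 ± 4.45 CPM and was at 16.2 ± 2.07 CPM with synta-66, a fall of 0.89 ± 0.20 on the log2 scale (adjusted p = 0.00271). ENSG00000258177, opposite the ternary complex factor ELK3, fell with CPA from 88.8 ± 14.3 to 53.9 ± 10 CPM and rose with synta-66 to 92.4 ± 8.12 CPM. The own row of ELK3 had 11.2, 11.9 and 10.9 CPM and was not called (adjusted p = 0.943 with CPA). LYSMD4, opposite the transcription factor MEF2A, rose with CPA from 28.1 ± 6.05 to 45.8 ± 4.59 CPM. ENSG00000229750, opposite the ATF/CREB family gene ATF2, was higher with CPA and synta-66 than untreated, at 61 ± 8.67 against 37.1 ± 4.01 CPM. At own rows 1 of 32 was called, near the background of 1.80% higher and 1.05% lower over all rows. This was the row of CAMK4, a calmodulin-dependent kinase that phosphorylates CREB. The level at that row rose with CPA from 19.1 ± 5.39 to 60.7 ± 19.3 CPM. It was at 47 ± 15.6 CPM with synta-66, again higher than untreated (adjusted p = 1.89e-05). The store sensor STIM1 and the channel subunit ORAI2 were not called at their own rows or opposite features.

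The rows most like these readings over the 12 libraries were found by Pearson correlation of log2(CPM + 1) among 6357 rows whose mean reached 5 CPM. The 12 points share 3 groups, so these values describe a common pattern across the groups. For NR4A1AS they were ENSG00000257042, opposite PTHLH (r = 0.979), MESD, opposite CEMIP (0.971), IER3-AS1 (0.969), ENSG00000232220, opposite MYADM (0.965), and ENSG00000281194 (0.96). For IER3-AS1 they were CSNK1D, opposite SLC16A3 (r = 0.974), the feature opposite PTHLH (0.972), NR4A1AS (0.969), and those opposite OVOL1 and LRRC8E (0.968 each). NR4A1AS and IER3-AS1 were thus among the nearest 5 of each other. The feature opposite PTHLH, which encodes parathyroid hormone-related protein, had 383, 1487 and 331 CPM in the untreated, CPA and synta-66 groups. For HOOK2 they were SPAG4 (r = 0.936), and the features opposite TRIM47 (0.925), CDC14A (0.919) and S100A6 (0.899), and ZSWIM4 (0.893). Neither NR4A1AS nor IER3-AS1 was among them.

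RefSeq promoter windows, from 250 bases before to 50 after a start site, were at hand for 5 of the 8 genes, NR4A1, JUNB, FOS, EGR1 and ATF3. IER3, FOSL1 and MYC had no entry. Both windows of NR4A1 belong to upstream starts, 28610 and 13727 bases from that of the GENCODE canonical transcript. Both strands were searched for the CRE core TGACG, the full CRE TGACGTCA, AP-1 (TGANTCA), EGR (GCGNGGGCG), SP/KLF (GGGCGG), the NFAT core GGAAA, the TATA box TATAAA and the CArG box bound by SRF. The CRE core lies within the full CRE. The JUNB window, shown because it lies at the canonical start of a gene whose opposite feature was called, holds the CRE core at -137 to -133 and a TATA box at -31 to -26, counted from 0 at the start site, and none of the other motifs. The window is chr19:12791236-12791535, plus strand, GRCh38.p14, with the 2 matches in capitals.
JUNB promoter: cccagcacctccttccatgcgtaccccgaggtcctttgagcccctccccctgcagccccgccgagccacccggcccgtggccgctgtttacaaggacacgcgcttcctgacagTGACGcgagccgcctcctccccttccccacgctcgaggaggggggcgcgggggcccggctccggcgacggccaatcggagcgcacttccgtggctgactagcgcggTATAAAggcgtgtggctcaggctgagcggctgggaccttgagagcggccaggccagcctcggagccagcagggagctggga
The CRE core was in 24.6% and the TATA box in 11.5% of 35116 RefSeq windows of the same length. FOS also held 1 CRE core and 1 TATA box, with 1 SP/KLF match. EGR1 held 2 CRE cores, 1 EGR match and 2 CArG boxes, a motif present in 1.29% of windows. In the NR4A1 windows the search found 1 SP/KLF match (45% of windows) and 1 NFAT core (61.2%), both in the one nearer the canonical start. ATF3 had 1 SP/KLF match, 1 NFAT core and 1 TATA box over its 2 windows, which lie 43354 and 6257 bases from its canonical start. Full CRE (1.85% of windows) and AP-1 motifs (7.71%) were in none of these windows. A match is a description of letters in the window and not a measured binding site.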

How the data were processed

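Total RNA of HSC-3 cells was sequenced in 12 libraries, 4 in each of 3 groups, which were taken from the sample titles. The authors' deposited files hold raw counts of reads per Ensembl gene. Per the labels' protocols, reads were aligned to GRCh38 (Ensembl 84) with STAR 2.5.2a and counted with HTSeq 0.6.1p1, taking the library as stranded. Trimmomatic is given as 0.32 in the labels' protocols and as 0.36 in the submitters' processing notes. No source used here names the library kit. The tables' tallies of uniquely aligned reads exceed, in some libraries, the trimmed reads the labels give, so what 1 count stands for (a read or a pair) is not given there. Reads in no annotated feature (90.5% to 96.3% of uniquely aligned reads) and the other closing rows stayed out of library sizes and tests.

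Rows with at least 5 reads in 2 libraries of a group entered 1 quasi-likelihood fit of all 12 libraries (edgeR 4.0.16 under R 4.3.3, TMM scaling, no term but group), with p-values adjusted by Benjamini-Hochberg over 14911 rows. A call needs adjusted p under 0.05 and at least 1.5-fold. Opposite features, coordinates and transcripts come from GENCODE 44 on GRCh38, a later annotation than the one counted, so exon limits may differ. Of these steps, only the edgeR and DESeq2 fits were tested on simulated counts. The 8 genes and the gene lists were chosen with earlier results of these data known. Named are all 8 genes, up to 6 called members of each list and the 5 rows most like each reading. IER2, MAFF, MAFK, STIM1 and ORAI2 of those lists, and KRT8, KRT18, KRT5, TP63 and VIM of the markers, were named after their values were seen. The alternatives included upper-quartile and RLE scaling, DESeq2 1.42.0, filterByExpr, no count filter, no minimum fold, only the 2 groups compared, the replicate number as a block, each library left out in turn and an overlap of 100 bases. Added after seeing the data were fits that omit the 3 libraries with the most non-unique alignments, are scaled to uniquely aligned reads, or omit mitochondrial ribosomal RNA.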

Additional observations from a re-analysis of the deposited data

Results flagged for a closer look

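At 2 own rows, 1 untreated library stood far from the other 3 of its group. The own row of IER3 had 0.938 CPM in untreated replicate 3, from 3 reads, against 4.1 to 4.6 CPM in the others. Mitochondrial ribosomal RNA took 39.6% of the gene reads of that library. It was also the lowest untreated library at the own rows of JUNB and MYC and at HOOK2, but the highest at NR4A1AS, IER3-AS1 and CASC11. Whether these are linked was not tested. The own row of ATF3 had 0.416 CPM in untreated replicate 1, from 2 reads, against 0 in the others. About 1 in 20 groups would be marked in this way by chance if values were normally distributed, and 26 groups were examined. That rate does not hold for rows of so few reads. A group with reads in only 1 library, as for ATF3, is always marked.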

How the results depend on the processing

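The calls at NR4A1AS and IER3-AS1 with CPA and with synta-66 added held under all 23 alternatives. NR4A1AS lay between 3.223 and 3.751 (log2) and then between -4.803 and -4.273, and IER3-AS1 between 0.939 and 1.017 and then between -1.476 and -1.374. The call at HOOK2 ended in 1 of 23, when the 3 libraries with most non-unique alignments were omitted (-0.563). With no minimum fold, IER3-AS1 (-0.44) and HOOK2 (-0.365) were called lower in CPA with synta-66 than untreated, and 655 rows in place of 425 were called for CPA against untreated. Leaving out 1 library moved NR4A1AS in that last comparison of CPA with synta-66 and untreated between -1.311 and -0.783. Uncalled own rows changed sign there when 1 library was left out, IER3 between -0.176 and 0.277, JUNB between -0.3 and 0.528 and MYC between -0.115 and 0.179, as did FOSL1 for synta-66 added to CPA, between -0.254 and 0.065. Without the 3 libraries the own rows also turned for JUNB (-0.034) and FOSL1 (0.019) with synta-66 added to CPA, and against untreated for IER3 (-0.036), JUNB (-1.18) and MYC (-0.177). MYC turned there as well when scaled to uniquely aligned reads (-0.06). The cause was not tested. With the replicate block, 441, 723 and 418 rows were called in place of 425, 710 and 433, and no call at the 8 rows changed. With group means removed, same-numbered libraries correlated between -0.073 and 0.14, over 0.1 in 1 of 12 pairs. Differently numbered libraries were not compared, so these values cannot settle whether the numbers pair the samples. Own rows with at most 57 reads in a library limit what could be seen for these genes, and whether these rows hold the genes' reads was not tested.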
